A study of Mus musculus castaneus and Mus musculus domesticus with 13 samples.

Results

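The comparison set 3 pluripotent lines of the B6D2F1 mouse, a hybrid of C57BL/6 and DBA/2, against embryonic fibroblasts of the same hybrid. It held 4 of the 13 RNA-seq samples of the series, taken by their labels and not by any measured value. The study made embryonic stem cell lines from blastocysts cloned with blood leukocyte nuclei (nuclear transfer embryonic stem cells, ntESCs) of B6D2F1 mice and of the wild-derived CAST and CASP strains. RNA was sequenced to compare these lines with one another, with a line from a fertilized embryo and with fibroblasts. The B6D2F1 ntESC lines were F2, which is female, and M3, which is male. The third pluripotent line was a wild-type B6D2F1 ESC line from a fertilized embryo, and the fibroblasts were wild-type mouse embryonic fibroblasts (MEFs). The labels give no sex for the ESC line or the MEFs. The ntESC lines were kept within 15 passages in 2i/LIF medium with 15% serum replacement, on growth-arrested feeder fibroblasts of a C57BL/6 substrain, and were plated on gelatin to remove the feeders before RNA was taken. For the ESC line the label repeats the ntESC culture protocol, and its passage number and feeder removal are not given in the sources used here. The 2i inhibitors CHIR99021 and PD0325901 block glycogen synthase kinase 3 and MAP kinase kinase. All 4 samples were untreated, each was 1 culture and 1 library, and neither the number of embryos behind the MEFs nor their stage was given in the sources used here.

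Mouse ESCs are held in a naive state by a network of transcription factors around Oct4 (Pou5f1), Sox2 and Nanog, with LIF acting through Stat3 and the 2i inhibitors holding back differentiation. They grow as compact epithelial colonies, carry little repression on many germline genes and can give rise to all tissues of the embryo. MEFs are the adherent cells that grow out of a minced fetus. They are mostly mesenchymal, with an extracellular matrix of collagen and fibronectin, contractile fibres and Hox genes that record position along the body, but such cultures are not pure.

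The libraries held 37477779 to 49968894 gene counts, and 14326 to 15129 genes in each reached 1 CPM (counts scaled by library size and a TMM factor). The MEF side had no replicate, so the spread between fibroblast cultures is not known, no test was made, and the SD given with each mean is the spread of the 3 pluripotent lines (n = 3), each a separate culture. A gene was called higher or lower when all 3 pluripotent libraries lay at least 4-fold above or below the MEF library, with 3 counts as the lowest level in any library. Of 16861 genes that reached 1 CPM in the MEFs or in the pluripotent mean, 1565 (9.28%) were called higher and 2451 (14.5%) lower. The median log2 ratio over all compared genes was 0.05. Intervals and floors cover counting error only. In bulk RNA, fewer cells of a type and less RNA per cell cannot be told apart.

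The ESC library stood apart from both ntESC libraries. In it 252 genes lay at least 4-fold above each ntESC library and 70 at least 4-fold below, against 18 and 26 for F2 and 3 and 20 for M3. Of the 252 genes above, 22 were called lower against MEF and 29 higher. Of the 70 below, 8 were called lower and 27 higher. Over all compared genes, 14.5% were called lower and 9.28% higher. Without it, 11 counts of called genes per list moved by over 1.5 times and 103 did not.

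**Figure D1:**
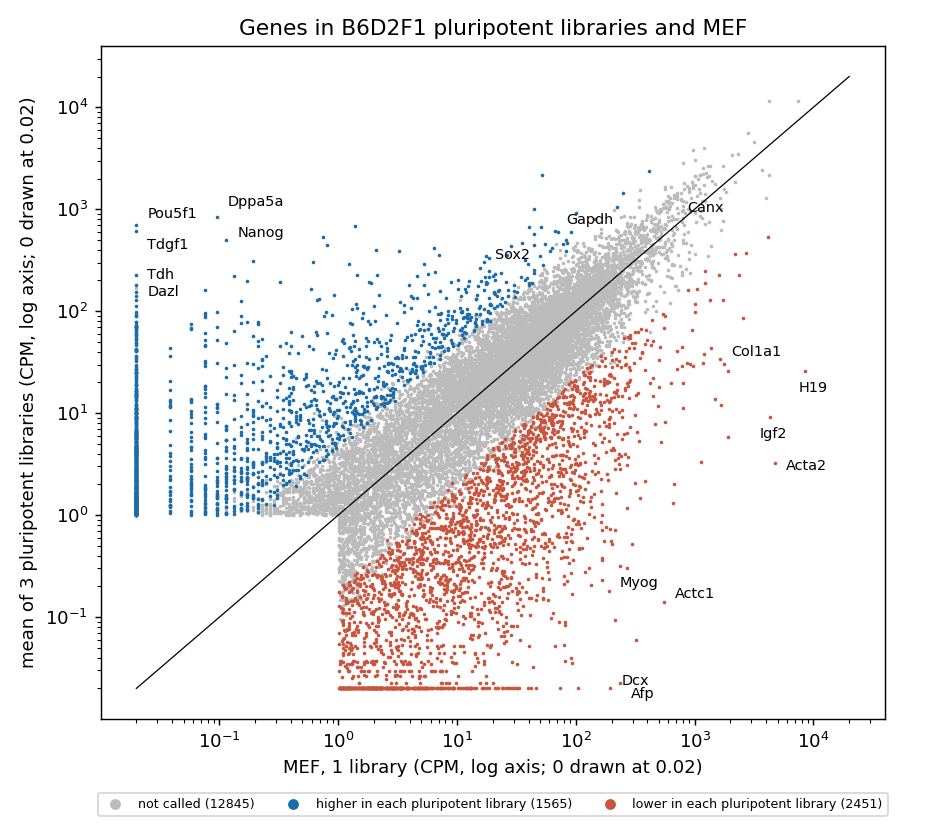
Each point is 1 of the 16861 compared genes, with its level in the MEF library on the x axis and the mean of the 3 pluripotent libraries on the y axis, both in CPM on log axes with 0 drawn at 0.02. The 1565 genes called higher (blue) reach from the left edge, where MEF had no count, and the 2451 called lower (red) include Acta2, H19 and Igf2 at the far right.

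The core pluripotency factors were counted in all 3 lines and were nearly absent from the MEFs, apart from Sox2 and Trim71. All 16 listed core factors were called higher, with a median log2 ratio of 10.24. Pou5f1, on chromosome 17 at 35506018 to 35510772 of GRCm38, had 709.6 CPM in F2, 728 in M3 and 640.6 in the ESC line, and no count in the MEFs. The 3 lines lay close together (692.7 ± 46.1), at least 12090-fold above the MEF floor. Tdgf1, a co-receptor for Nodal, had 643, 691.7 and 506.7 CPM and again no MEF count, at least 10720-fold higher. Nanog had 521.4, 488.8 and 477.6 CPM against 0.115 in the MEFs, a 4329-fold difference. Dppa5a, an RNA-binding protein of early embryos, was the 1 gene of these 4 that was highest in the ESC line, with 731.1, 737.6 and 1066 CPM against 0.0955, or 8849-fold.

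Sox2 was an exception in size, not in direction. Its levels were 326.5, 331 and 250.8 CPM in F2, M3 and the ESC line and 16.9 in the MEFs, which made the difference 17.9-fold. The MEF level rested on 886 counts, and Sox2 had no count in the tail-tip fibroblast (TTF) library of the CAST strain, the only other fibroblast sample of the series. Sox2 is also a factor of neural progenitors, whose other markers are given below. Trim71, an RNA-binding repressor of differentiation, showed the same pattern with 15.5 CPM in MEF, 0.158 in TTF and a mean of 266 ± 95.9 in the pluripotent lines.

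Of 16 listed naive-state genes, 13 were called higher and none lower (median log2 ratio 5.32). Esrrb, an orphan nuclear receptor, had 756.4, 797.1 and 499.9 CPM in F2, M3 and the ESC line against 1.39 in MEF. Tfcp2l1, a target of LIF signalling, had 557.4, 569.5 and 487.4 CPM against 0.745, a 722.6-fold difference. Both were lowest in the ESC line. Klf2, Klf4 and Klf5, Krüppel-like factors that support the naive state, were higher by 40.9-, 19.9- and 12.5-fold. For Klf4 the choice of fibroblast mattered: 17.6 CPM in MEF but 160.6 in TTF. Prdm14, Dppa3, Tcl1 and Spic had no count in the MEFs. Gbx2, Zfp57 and Tbx3 were called in neither direction, with Zfp57, which protects imprints, at 92.2 CPM in the MEFs.

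**Figure D2:**
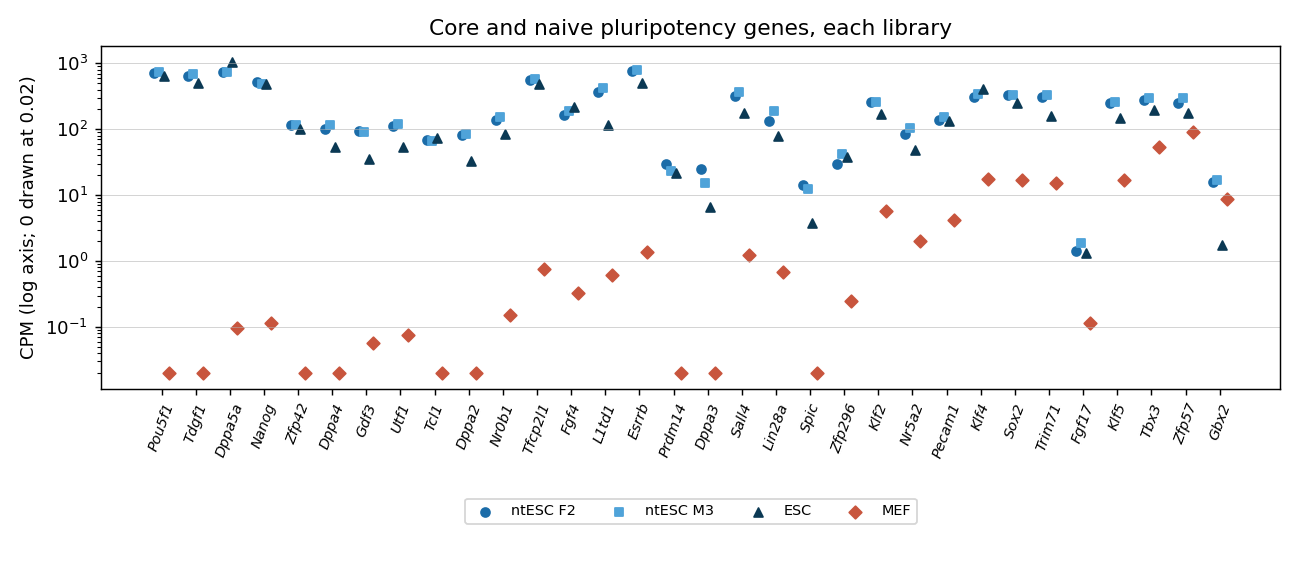
Levels of the core and naive pluripotency genes in each library, in CPM on a log axis with 0 drawn at 0.02, ordered by their ratio to MEF. Pou5f1 to Dppa2 had at most a trace in MEF, whereas Sox2, Trim71, Klf4 and Klf5 lay at 15.5 to 17.6 CPM there, and Gbx2 in the ESC line fell under its MEF level.

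The largest ratios outside the core list belonged to genes of germ cells, metabolism and membranes. Aqp3, a water and glycerol channel, had 129.3, 84.8 and 275.2 CPM in F2, M3 and the ESC line against 0.0764 in MEF, a 2136-fold difference, or 1402-fold without the ESC line, where it was highest. Pnma5, an X-linked gene of the paraneoplastic antigen family, had 188.7, 109.5 and 87.9 CPM and no MEF count. By gene class, 109 of 335 lincRNAs (32.5%), 1222 of 14432 protein-coding genes (8.47%) and 64 of 998 processed pseudogenes (6.41%) were called higher.

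Genes of the formative and primed states were mixed. Of 14 compared, 5 were called higher and 1 lower, with a median log2 ratio of 2.23, and 8 were called higher without the ESC library. Nodal had 94.9, 86.9 and 79.4 CPM in F2, M3 and the ESC line against 0.0764 in MEF. Its antagonists Lefty1 and Lefty2 were higher too, and both were lowest in the ESC line (Lefty2 at 95.1, 78.9 and 18.4 CPM). Fgf15 was the gene called lower, at 0.635 ± 0.176 CPM against 12.7 in the MEFs. Genes that mark cells resembling the 2-cell embryo were mostly at low levels in the lines: 10 of 11 were called higher, and the 6 Zscan4 genes had no count in MEF. Eif1a, a translation initiation factor also used by other cells, was the gene not called, at 265.9 ± 63.2 CPM against 137.2. Zscan4f, for example, was at 2.6, 8.73 and 5.32 CPM, and all 6 were lowest in F2. These Zscan4 genes are near-identical copies, so the split of reads among them is uncertain.

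Germline genes that are silenced by DNA methylation in body cells were counted in the pluripotent lines. Of 15 compared, 13 were called higher (median log2 ratio 6.09). Dazl, an RNA-binding protein of germ cells, had 236.7, 243.2 and 57 CPM in F2, M3 and the ESC line and no count in the MEFs. Hormad1 and Fkbp6, both of meiosis, were at 53.7 ± 14.6 and 41.8 ± 6.15 CPM with no MEF count. Tdrd1 was the opposite, with 0.417 ± 0.297 CPM against 3.51. Tex19.1, a germline and placental gene that was among the 10 largest ratios of all, had 198.4, 176.6 and 83.5 CPM and no MEF count.

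The DNA methylation machinery was divided by enzyme. Dnmt3l, a cofactor of the de novo methyltransferases, had 140.5, 168.2 and 112 CPM in F2, M3 and the ESC line and none in the MEFs. Tet1 and Tet3, both of which oxidize methylcytosine, lay on opposite sides of MEF. Tet1 was at 431 ± 141 CPM against 28.6 (15.1-fold higher), and Tet3 at 14.2 ± 3.82 against 142.2 (10.01-fold lower). In all, 4 of 12 such genes were called higher and 1 lower. Of 17 Polycomb genes 4 were called higher and 1 lower, or 2 lower without the ESC library: Cbx7, a chromobox subunit, was 101-fold higher (208, 217.9 and 141.1 CPM against 1.87), while its relative Cbx8 was 6.05-fold lower.

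Epithelial junction genes were higher in the lines. Of 16 listed, 14 were called higher and none lower, with a median log2 ratio of 4.46. Cdh1, E-cadherin, had 401.8, 457.7 and 396.1 CPM in F2, M3 and the ESC line against 6.4 in MEF. Epcam had 153, 144.3 and 134.9 CPM against 2.2. The folds of Cdh1 and Epcam were 65.4 and 65.6. Esrp1, which directs epithelial splicing, was 226.9-fold higher, and the claudins Cldn4, Cldn6 and Cldn7 were each higher in the ESC line than in both ntESC lines.

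Metabolic and signalling genes were mostly below the 4-fold limit. Of 18 genes for threonine and one-carbon metabolism, 3 were called higher: Tdh, threonine dehydrogenase, and Gldc and Amt of the glycine cleavage system. Tdh had 300.2 and 310.1 CPM in F2 and M3 but 61.4 in the ESC line, and none in the MEFs. Gldc and Amt were 13.2- and 14.1-fold higher, and Mthfd2l was 33.6-fold lower. Among FGF-MAPK genes the ligand Fgf4 and the effector Etv5 were called higher, while the receptor Fgfr2 and the feedback genes Spry1 and Dusp4 were lower by 7.91-, 5.44- and 7.91-fold. Of 11 Wnt targets, Cdx1 was called higher, and Lgr5 and Nkd1 lower. This list changed with the library left out, to 3 higher without the ESC line and 2 without M3.

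Cell cycle genes were mostly not called. Over all compared genes 9.28% were called higher and 14.5% lower, and here none of 20 was higher and 2 were lower. Ccnd2, cyclin D2, was one of them, at 2.34, 2.23 and 1.98 CPM in F2, M3 and the ESC line against 379.8 in MEF, a 174-fold difference. Myc was the other (14.4 ± 6.52 CPM against 83.1). Among CDK inhibitors and p53 targets, Sesn2 was higher and Cdkn2b and Cdkn1c were lower. Of 10 reference genes, 8 were within the limits, and Gapdh and Hprt were called higher. Canx, calnexin, had 782.9, 723.4 and 884.5 CPM against 705.2. Gapdh was at 606 ± 128 CPM against 67.4, and 78.1% of the 100-base windows of its transcripts also occur in other genes, pseudogenes among them, so its counts are uncertain. No such window of Hprt occurred in another gene.

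Among all genes called lower, the 10 largest ratios mixed muscle actins with genes of neurons and progenitors. Epha3, a guidance receptor, was at 92.3 CPM in MEF and at most 0.0544 in the lines. Megf10, an engulfment receptor of muscle progenitors and glia, had 104.1 CPM in MEF and no count in any line, at least 1276-fold lower. Miat, a long non-coding RNA, and Rbms3, an RNA-binding protein, were 2271- and 1488-fold lower. Actc1, Afp, Actg2, Dcx, Acta2 and Fabp7, described below, completed the set.

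Contractile genes were part of it. Of 15 smooth-muscle genes on the list 14 were called lower, with a median log2 ratio of −6.31. Acta2, smooth-muscle α-actin, had 3.13, 2.83 and 3.77 CPM in F2, M3 and the ESC line and 4737 in MEF, a 1461-fold difference. Tagln had 3.34, 3.34 and 10.7 CPM against 1896, Myl9 2.02 ± 0.74 against 670.6, and Myh11 0.383 ± 0.156 against 165.7. In TTF, Acta2 was at 650 CPM and Myh11 at 5.48, so the MEF library held more of both than the other fibroblast library did. Des, desmin, was the gene of the group that varied most, at 2.57, 3.45 and 33.1 CPM against 192.5.

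All 6 mouse actin genes were in the table and their coding sequences are close to one another, yet their levels differed widely between the libraries. The last 60 coding bases of each are shown because the counts depend on telling these genes apart, and were read from the GENCODE M21 transcripts (GRCm38). Each is given 5′ to 3′ with the stop codon at its end, and capitals mark the bases that differ from Acta2. All 6 genes lie on the minus strand, with Acta2 on chr19:34241090-34255590, Actg2 on chr6:83512905-83536265, Acta1 on chr8:123891769-123894751, Actc1 on chr2:114047282-114053548, Actb on chr5:142903115-142906754 and Actg1 on chr11:120345690-120348542.
Acta2: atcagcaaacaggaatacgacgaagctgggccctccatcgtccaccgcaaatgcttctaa
Actg2: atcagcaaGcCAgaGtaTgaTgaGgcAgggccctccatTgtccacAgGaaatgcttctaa
Acta1: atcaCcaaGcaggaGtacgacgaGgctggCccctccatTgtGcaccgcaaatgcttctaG
Actc1: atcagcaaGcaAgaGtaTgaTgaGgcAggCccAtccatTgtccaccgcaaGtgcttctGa
Actb: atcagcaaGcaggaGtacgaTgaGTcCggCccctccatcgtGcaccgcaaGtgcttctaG
Actg1: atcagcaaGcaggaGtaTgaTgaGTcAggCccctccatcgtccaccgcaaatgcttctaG

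Within these 60 bases the other 5 genes differed from Acta2 at 8 to 12 positions, and over 1128 coding bases they were 81.7% to 85.4% identical to it. No 100-base window of Acta2, Actg2, Acta1 or Actc1 occurred in another gene. Per kilobase of transcript, Acta2 stood at 2157 CPM in MEF and 1.48 ± 0.219 in the pluripotent lines. Actg2, of enteric smooth muscle, stood at 206 per kilobase in MEF and 0.0384 ± 0.0666 in the lines. Acta1 and Actc1, of skeletal and cardiac muscle, stood at 129 and 343 per kilobase in MEF. The cytoplasmic actins did not follow the muscle forms: Actb stood at 1367 per kilobase in MEF and 904 ± 345 in the lines, and Actg1 at 1506 and 489 ± 264. Both were lowest in the ESC line, Actb at 2964, 2948 and 1356 CPM.

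Matrix genes were mostly lower, collagens more uniformly than glycoproteins. Of 20 collagen genes 18 were called lower and none higher (median log2 ratio −5.12). Col1a1, the main chain of type I collagen, had 21.9, 22.7 and 56.3 CPM in F2, M3 and the ESC line against 1645 in MEF. Col3a1 had 29.8, 24.3 and 38 CPM against 1773, a 57.8-fold difference. Col11a1, of cartilage, and Col12a1 had the largest folds of the list, at 134 and 109. Of 29 glycoprotein and remodelling genes 21 were called lower, among them Fbn2, the fibrillin of fetal tissue, at 338-fold, and Tnc, tenascin C, at 138.5-fold. Another 7 were not called: Fn1 (fibronectin), Sparc, Fbln1, Fbln2, Timp1, Dcn and Mfap5. Fn1 held 26% of the sum of this list in MEF, with 4197 CPM there and 2445 in the ESC line. Fbn2 separated the fibroblast libraries, with 1121 CPM in MEF and 0.29 in TTF. Mmp3, a metalloproteinase of stimulated fibroblasts, was the only gene of this list called higher, at 1.1 ± 0.143 CPM against no count in MEF, whereas TTF had 283.6.

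Mesenchymal transcription factors were lower as a group, 22 of 24, with a median log2 ratio of −5.65. Prrx1, a homeobox factor of limb and body-wall mesenchyme, had 1.71, 0.843 and 0.965 CPM in F2, M3 and the ESC line against 269.3 in MEF. Twist1 was 20.1-fold, Zeb2 65.8-fold and Nr2f1 101-fold lower. Meox1, a somite factor, was at 14.3 CPM in MEF and 0.0331 ± 0.029 in the lines. Of 19 growth factor receptors and adhesion genes 12 were lower, including Pdgfrb at 1.63, 2.72 and 6.78 CPM against 274.4. Of 13 YAP-TEAD targets 4 were called lower and none higher, beside 14.5% lower and 9.28% higher among all compared genes. Ankrd1, 1 of the 4, had no count in either ntESC library, 0.696 CPM in the ESC line and 166.4 in MEF.

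Immune genes were divided by list. Of 11 cytokine and adhesion genes compared, 1 was higher and 6 were lower, such as Csf1 at 29-fold and Vcam1 at 47.7-fold, or 52.5- and 105.8-fold without the ESC line. Icam1 was the higher one, at 120.2, 121.3 and 248.8 CPM against 10.2 in MEF, although TTF had 334.2. One of 10 MHC class I genes was called, Psmb9 of the immunoproteasome, and its call rested on the ESC line: 0.578, 0.952 and 5.14 CPM against 0.134. Without the ESC library Psmb9 was not called, and 1 other gene of that list was called lower. Of 12 interferon-response genes Oas1a and Bst2 were higher and Ifih1 lower, with 2 lower without the ESC library.

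Imprinted genes, expressed from 1 parental allele, were lower or not called: 13 of 23 were called lower and none higher (1 higher without the ESC library), with a median log2 ratio of −3.01. H19, a non-coding RNA of fetal tissue on chromosome 7, had 21.4, 17.9 and 39.2 CPM in F2, M3 and the ESC line. In MEF it had 8554 CPM, the highest level of any gene there and 0.897% of all counts, and in TTF 4.16. Igf2, its neighbour and a fetal growth factor, had 8.9, 10 and 8.86 CPM against 4308 in MEF and 9.58 in TTF. At both genes the pluripotent lines lay nearer to TTF than to MEF. Igf2 shares 75.7% of its windows with an annotated overlapping locus, so its level is uncertain.

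Other imprinted genes behaved alike to different degrees. Dlk1, a Notch-like ligand, was 153-fold lower (2.04 ± 0.317 CPM against 313.4), and its reciprocally imprinted neighbours Meg3, Rian and Mirg were called in neither direction. Cdkn1c, a growth-restraining CDK inhibitor, had 1.18 and 1.69 CPM in F2 and M3 but 12.8 in the ESC line, against 520.8 in MEF. Mest had 94.9 and 87.3 CPM in F2 and M3 but 15 in the ESC line, against 941.3. The ESC line was thus nearer to MEF than the ntESC lines at Cdkn1c and farther from it at Mest. Grb10, Nnat and Zim1 were 13.5-, 41.4- and 57.5-fold lower.

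**Figure D3:**
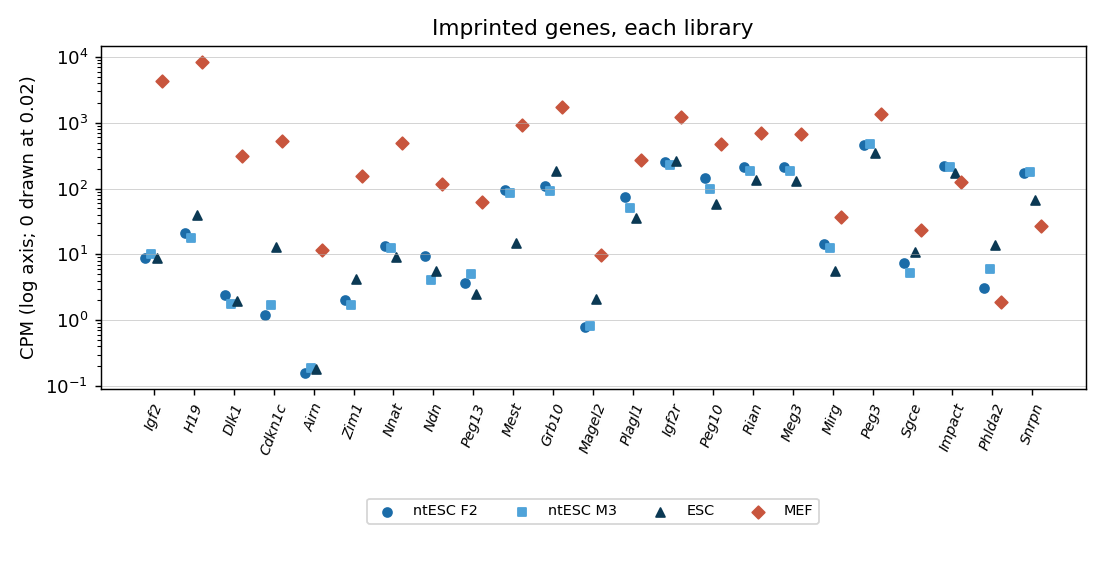
Levels of the 23 imprinted genes in each library, in CPM on a log axis, ordered by their ratio to MEF. From Igf2 to Magel2 the MEF level is at least 4-fold above every line, and Cdkn1c and Mest show the ESC line away from both ntESC lines, in opposite directions.

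The MEF library carried Hox genes from nearly the whole body axis, and the pluripotent lines very few. Summed over each cluster, Hox B stood at 8.35, 5.6 and 5.34 CPM in F2, M3 and the ESC line against 276 in MEF, Hox C at 7.51, 5.87 and 10.1 against 170, and Hox D at 2.44, 2.5 and 4.42 against 85.8. Of 37 compared Hox genes 33 were called lower and only Hoxb13 higher. Hoxb9 was highest in MEF at 83.3 CPM, and in the lines had 5.49, 3.51 and 2.54. Hoxb5, Hoxa6, Hoxd3 and Hoxd12 had no count in any pluripotent library, although 84% of the windows of Hoxd3 are shared with neighbouring loci.

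The 2 fibroblast libraries differed in which Hox genes they held. MEF had 10 CPM or more of 21 Hox genes, from Hoxb2 (26 CPM) and Hoxa3 (21.8) in front to Hoxc10 (20.8), Hoxd11 (10.3) and Hoxd13 (13.7) behind. TTF, from the tail, was highest at Hoxb9 (63.9 CPM) and at the posterior genes Hoxc12 (48.5), Hoxb13 (42.9), Hoxc13 (41.9) and Hoxa10 (41.7), and held 1.11 CPM of the whole Hox D cluster. These libraries differ in strain, age and tissue at once, which cannot be told apart. Of 29 other regional factors 20 were called lower in the pluripotent lines. They included Tbx5 of the forelimb and heart (12.3 CPM in MEF), Pitx1 of the hindlimb (18.3), Hand2 (27) and Emx2 (13.8), and Tbx5 and Emx2 had no count in the lines.

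**Figure D4:**
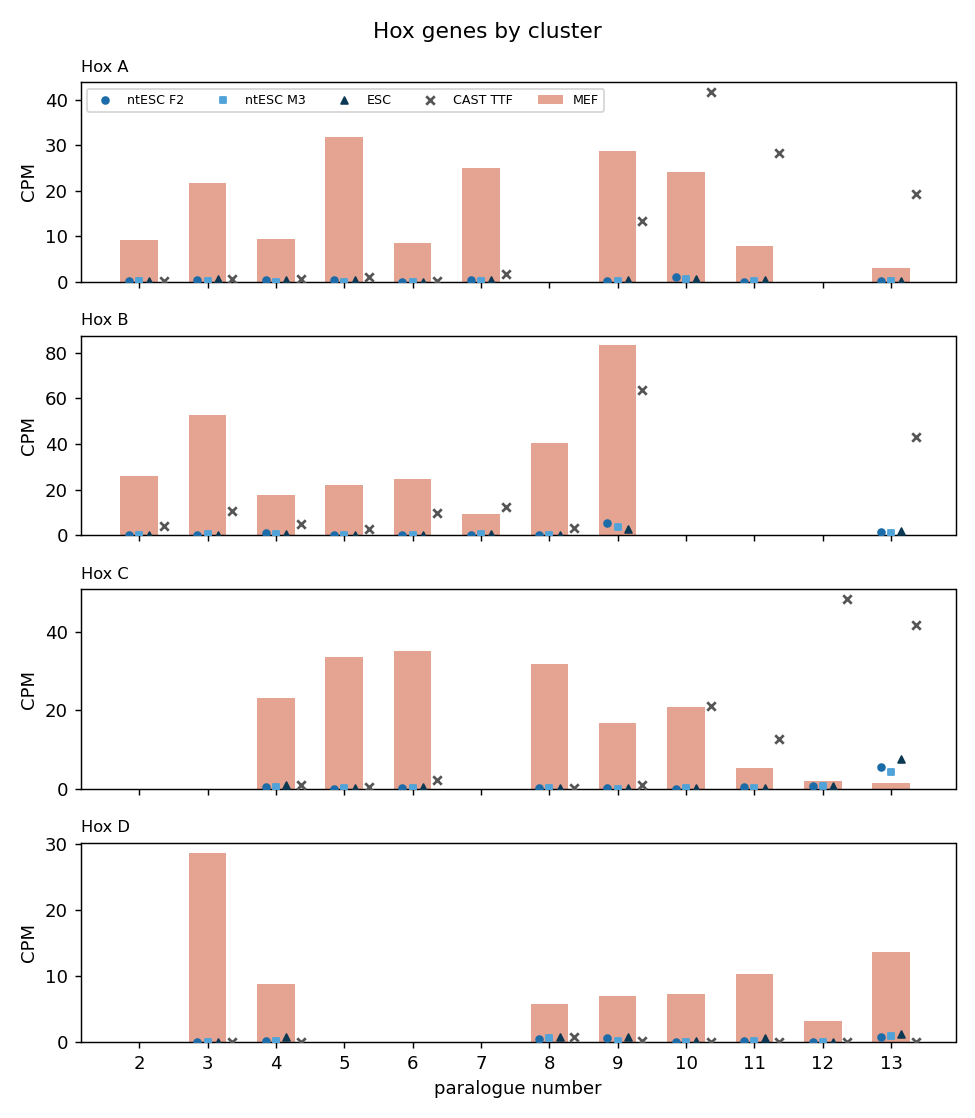
Hox genes of paralogue numbers 2 to 13 in each cluster, in CPM on linear axes; bars are the MEF library and points the 3 pluripotent libraries and the CAST TTF library. MEF spreads from paralogue 2 to 13, with Hoxb9 at 83.3 CPM, TTF is highest at Hoxb9 and the posterior paralogues and is near 0 over Hox D, and the pluripotent points lie near 0 except Hoxb9 and Hoxc13.

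The MEF library held marker genes of other cell types beside those of fibroblasts. The 12 fibroblast markers summed to 7455 CPM in MEF, with 11 called lower in the pluripotent lines, where they summed to 317, 351 and 347. Dcn, decorin, was the marker not called, at 2.26, 1.93 and 9.81 CPM in F2, M3 and the ESC line, 21.4 in MEF and 158.9 in TTF. Of 25 lists of cell type markers, 8 summed to at least 4 times each pluripotent library in MEF, and 10 to at least 4 times TTF. Several of these rested mostly on 1 gene or a low level. Among the 8, Afp, also on the liver and endoderm list, held 91.1% of the trophoblast and yolk sac sum. Among the 10, Kit held 96.8% of the granulocyte and mast cell sum and 78.65% of the germ cell sum. Lymphocyte markers, also among the 10, summed to 4.74 CPM in MEF. The primitive endoderm list had the largest sum in MEF after fibroblast, 2059 CPM against 116.9 to 229.8 in the lines and 1541 in TTF, but 66.5% of it was Col4a1, a basement membrane collagen. The lists were described by level, and no share of cells was estimated from them.

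Skeletal muscle had the largest ratio of MEF to the highest pluripotent library among these lists, 50.5. Its 15 markers summed to 1600 CPM in MEF, 3.95 in TTF, and 22.6, 26.1 and 31.6 in F2, M3 and the ESC line, and 13 of 14 compared were called lower. Myod1 and Myog, which commit myoblasts and start their differentiation, were at 81.3 and 190.5 CPM in MEF, and neither had a count in TTF. The pluripotent lines had 0.0374 ± 0.0648 CPM of Myod1 and 0.182 ± 0.271 of Myog. Pax7, of muscle progenitors, was at 18.4 CPM, Mymk, which drives myoblast fusion, at 16.9, and the embryonic myosin Myh3 at 345. Genes of progenitors, of committed myoblasts and of fused fibres were therefore all counted in this 1 library. Actc1, the muscle actin shown above, held 34.7% of the sum. It had none, 0.245 and 0.18 CPM in F2, M3 and the ESC line against 555.5 in MEF.

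Heart muscle markers were lower in level, with a sum of 285.7 CPM in MEF against 2.82 in TTF and 22.98 to 34.6 in the lines. Of 10 compared, 5 were called lower in the lines, and Nkx2-5, Myl7, Nppb, Tnni3 and Ryr2 were not called. Myl4 was the largest member, with 29.8% of the sum in MEF. Tnnt2, Myh6 and Myh7, a troponin and the α and β cardiac myosins, were at 58.1, 51.3 and 69 CPM in MEF. Fetal skeletal muscle uses some of these genes as well. Nppa, a hormone of the atrium, was at 3.06 CPM, 32.6-fold above the lines.

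Neural markers were also counted in MEF. Of 14 neuron markers 10 were called lower in the lines, and their sum was 1070 CPM in MEF, 149.1 in TTF and 169.6 to 316.2 in the lines. Dcx, doublecortin of migrating neurons, had 195.7 CPM in MEF and no count in any of the 3 lines or in TTF, at least 2399-fold lower. Map2 and Gap43 were at 180.4 and 107.2 CPM in MEF, 43.1- and 227.6-fold above the lines. Tubb3 was not called, because both ntESC lines held 79.1 and 83 CPM while the ESC line held 4.94. Of 14 neural progenitor markers 7 were lower in the lines, 2 higher (Sox2 and Olig2) and 5 not called, and their sum was 383.8 to 450.9 CPM in the lines and 68.2 in TTF. Fabp7 of radial glia was 2277-fold lower in the lines, and Nes, nestin, held 72.7% of the 1082 CPM of the progenitor list, although young muscle expresses nestin too. Neural crest and Schwann cell markers summed to 250.1 CPM in MEF. Tfap2b had 26 CPM there and no count in any other of these libraries, and Sox10 had 13.1 CPM in MEF against 0.291 ± 0.413.

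Endoderm and blood markers were counted in MEF too. The liver and endoderm sum was 13.7 times that of the highest pluripotent library, and the red cell sum 24.1 times. Afp, α-fetoprotein, made up 57.5% of the 409.4 CPM of the liver and endoderm list. It had 235.6 CPM in MEF, no count in F2, M3 or TTF, and 3 counts in the ESC line, for a ratio of 10500 (95% interval 3209 to 45470). Alb, albumin, had 31.7 CPM in MEF and no count in the lines or TTF. Red cell genes summed to 112 CPM against 2.58 to 4.65 in the lines, with the embryonic β-like globin Hbb-y at 42 CPM in MEF and no count in the lines. The copies Hba-a1 and Hba-a2 are near-identical, so the division of their reads is uncertain. Among platelet genes Pf4 and Ppbp were at 11.2 and 9.45 CPM in MEF, and among macrophage genes Csf1r at 12.4 and Cx3cr1 at 6.72, 40.8- and 129-fold above the lines. Of 9 compared platelet markers 7 were lower in the lines, and Itga2b, the largest in MEF, and Gp1ba were not called. The platelet sum was 46 CPM in MEF, 45.8 in TTF and 3.15 to 18.4 in the lines. Of 14 macrophage markers 9 were lower in the lines, 4 not called and Laptm5 higher, and the sum of 108.5 CPM in MEF lay between those of the lines (86.7, 78.3 and 180.3), with 463.4 in TTF.

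Other tissues were at the margin. Cartilage was counted in MEF through Col2a1 (190.9 CPM) and Col9a1 (32.1), tendon through Tnmd (29.9) and kidney through Lhx1 (19.3) and Pax2 (12.9). Of 11 compared cartilage markers 6 were called lower in the lines and 5 were not called. For tendon these counts were 4 and 1, and for kidney and urogenital markers 7 and 4. Tendon markers summed to 82.4 CPM in MEF and 440 in TTF. The kidney and urogenital sum was 176.3 CPM in MEF, 184.1 in TTF and 67.95 to 130.7 in the lines. Of 11 compared endothelial markers Kdr, Cdh5, Tie1, Emcn and Erg were called lower in the lines, but the sum was higher in the lines (215 to 241.1 CPM against 49.9 in MEF), with Pecam1, a gene of naive ESCs as well, at 141.5 ± 8.57 CPM in the lines and 4.12 in MEF. Of 12 epithelial markers Krt14, Trp63 and Krt8 were lower in the lines (5 were without the ESC library), but Cdh1, Epcam, Esrp1 and Grhl3 were higher, and the sum was 657.9 to 702.4 CPM in the lines against 153.8 in MEF. Epidermal Krt14 and Trp63 were at 7.26 and 3.49 CPM in MEF. Higd1b, Mlana, Bglap2, Cidec, Cdx2 and Dazl had no count in MEF, markers of pericytes, melanocytes, bone, fat, trophoblast or gut, and germ cells. These single markers do not stand for their lists. Of 9 compared pericyte and vascular smooth muscle markers 6 were called lower in the lines and 1 higher. Their sum was 869.4 CPM in MEF, 260.9 in TTF and 210.8 to 541.2 in the lines. Of 5 compared bone markers Runx2, Dmp1 and Phex were lower in the lines, and Alpl and Spp1 higher. Lists led by genes that ESCs use were higher in the lines: Alpl, a phosphatase of bone and of ESCs, had 396 ± 35.9 CPM against 2.1, and Kit 202.5 ± 24.9 against 21.

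**Figure D5:**
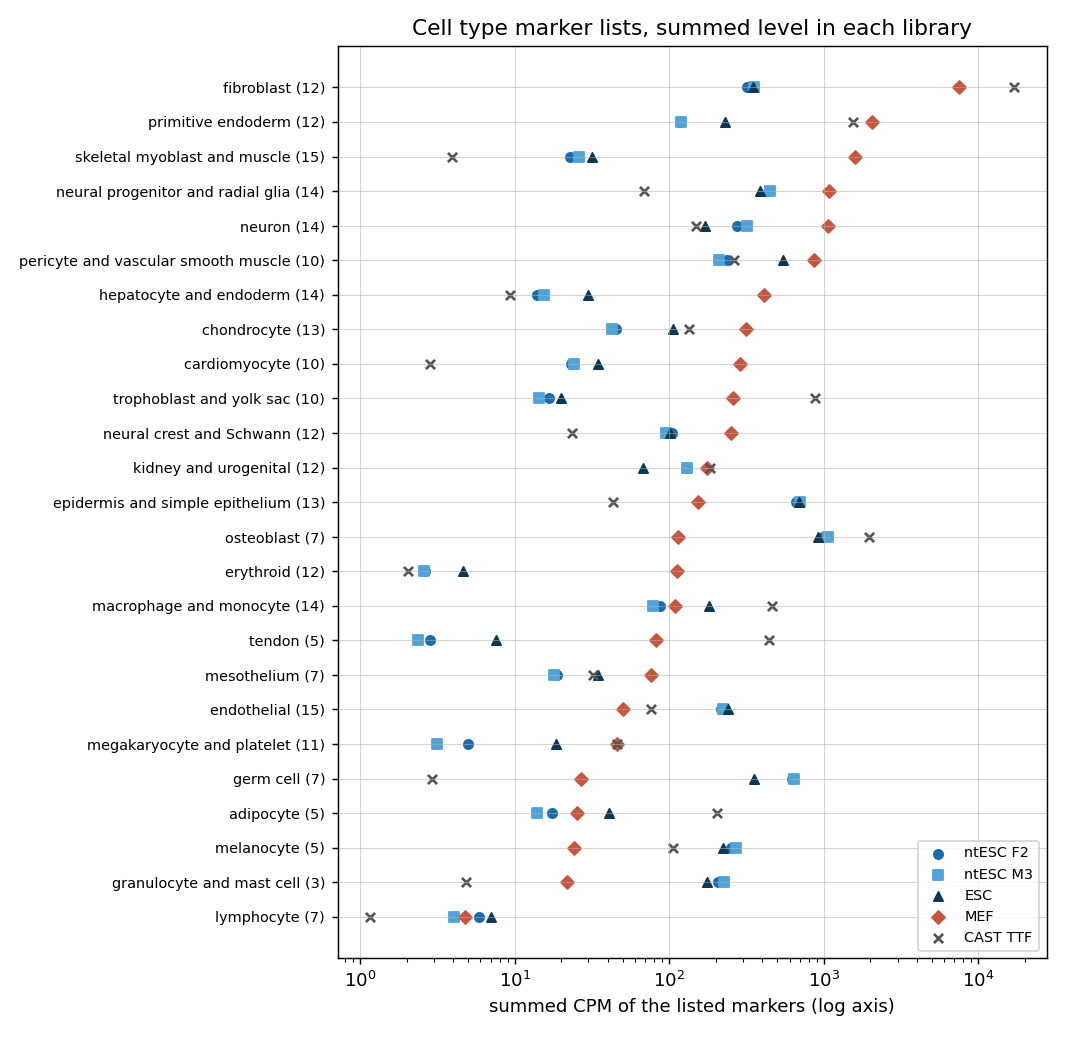
Summed CPM of each of the 25 cell type marker lists, on a log axis, with the number of listed genes in the table in brackets and 1 symbol per library. MEF (diamonds) lies far to the right of both the pluripotent lines and CAST TTF for skeletal muscle, heart muscle, liver and erythroid lists, and to the left of the lines for osteoblast, germ cell and melanocyte lists.

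Sex-linked genes were read in each library against the labels. Ddx3y, on the Y chromosome, had no count in F2, as its label says, and 66.8, 52.9 and 51.9 CPM in M3, the ESC line and MEF. Eif2s3y had none in F2, 63.1 and 44.7 CPM in M3 and the ESC line, and 22.6 in MEF. Xist, which silences an X chromosome in female cells, was at 498 CPM in MEF against 17.6, 13.4 and 23.1 in F2, M3 and the ESC line. The MEF library thus held both Y-linked RNA and the highest Xist. Tsix, which overlaps Xist on the other strand, had 4.59 ± 0.903 CPM in the lines and no count in MEF. How strand was used in counting is not given in the sources used here, so reads of Xist and Tsix may not be fully separate.

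The level that genes of the fibroblast side kept in the pluripotent libraries ranged widely. Of the genes called lower, 323 had at least 100 CPM in MEF, and their median level was 5.04% of the MEF level in F2, 4.39% in M3 and 5.8% in the ESC line. These levels are under 25% by the call itself. In 47 of the 323 genes every line was under 1%, and in 7 under 0.1%: Megf10, Dcx, Afp, Actc1, Miat, Actg2 and Acta2. Col1a1, at 1.33% in F2 and 3.42% in the ESC line, and Serpinh1, a collagen chaperone at 19.9% in F2, show how far the genes differ. The feeders were fibroblasts of another culture, and the part of carried-over feeders in these levels was not tested.

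At most genes the 3 lines lay close together. Over 14756 genes of at least 1 CPM, the highest line was a median 1.45-fold above the lowest, and 714 genes spread over 4-fold. Among the genes called higher the median was 1.66-fold. The ESC line was low in Dnmt3b, a de novo methyltransferase (162, 183 and 39.1 CPM), as it was in Tdh, Dazl and Lefty2. It was high in Btg2, an antiproliferative p53 target (38.2, 19.7 and 158 CPM). X-linked Magea8 and Magea13 were highest in F2, at 7.67 and 8.98 CPM against at most 0.517 and 1.82 in the other lines. Rps18-ps4 had 507.6 CPM in F2 and none elsewhere, while its near-identical copy Rps18-ps6 had none in F2 and 501.6 and 496.2 CPM in M3 and the ESC line. The assignment of reads between these copies is uncertain.

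For the CAST strain the series holds a like pair of groups, 4 ntESC lines and the TTF library, with no sample in common. By the same rule 2765 of 16640 genes (16.6%) were called higher and 2859 (17.2%) lower there. Of the 1565 genes called higher in B6D2F1, 957 were called higher in CAST as well, which is 61.2% of the B6D2F1 and 34.6% of the CAST calls. Of the 2451 called lower, 1129 were shared (46.1% and 39.5%). A smaller number went opposite ways, 33 higher in B6D2F1 and lower in CAST, and 98 the reverse. The 98 include H19, Mest, Xist, Nes, Myh3, Fbn2 and Krt8, and the 33 include Spp1, Mitf, Gadd45a, Mmp3 and Hoxb13. H19, for example, was at 26.1 ± 11.4 CPM in the B6D2F1 lines and 126.3 ± 42.3 in the CAST lines, but at 8554 in MEF and 4.16 in TTF.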

How the data were processed

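Polyadenylated RNA of each culture was sequenced as 100-base pairs from a stranded library. Per the study's methods, the authors used fastp 0.22.0 for trimming, HISAT2 2.2.1 for alignment (genome GRCm38), StringTie 2.1.7 for quantification and DESeq2 for normalization, while the submitters' processing notes name edgeR. They deposited a table of raw gene counts and a table of log2 values, log2 of the count over a size factor plus a constant. Both cover 21706 genes, of which 21675 were placed in GENCODE M21. No per-sample column was left unused.

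Counts were turned into CPM with TMM factors over all 13 libraries (edgeR 4.0.16, R 4.3.3). edgeR gave factors only, and no test was made against a single MEF library. The call rule was tested on simulated data. Calls, log2 ratios and their ranks set each level under 3 counts to that floor (0.0573 CPM in MEF, 0.0673 to 0.0816 in the lines). Printed folds divide the mean of the 3 lines and the MEF level as counted, and use the floor only against a side with no count, as a lower bound.

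Members and lists (32 pathway and 25 cell type lists, 702 of 739 genes in the table) were chosen with earlier results of these data known. Genes not in the table were not analysed here, and results of a few listed genes are not reported here. Named were Pou5f1, Sox2 and Canx, the 10 largest called ratios in each direction (at least 5 CPM, without Gm, Rik and -ps names), up to 4 called genes or leading markers of each list, markers at 0, and Hox genes of 10 CPM or more in MEF. Other genes in the text were chosen after their values were seen. Alternatives were RLE factors, library size only, TMM on 4 libraries, other filters and folds, the mean in place of every line, the deposited log2 values, coding genes only and each line left out.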

Additional observations from a re-analysis of the deposited data

Results flagged for a closer look

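At 2 genes both ntESC lines and the ESC line lay on opposite sides of MEF, each by at least 4-fold. Usp18, an interferon-induced protease on chromosome 6, had 0.105 CPM in F2, 0.0816 in M3 and 5.57 in the ESC line, against 0.764 in MEF and 1.58 in TTF. Gm20683, a predicted gene on chromosome 17, had no count in F2 or M3 and 4.67 CPM in the ESC line, against 0.745 in MEF and 2.98 in TTF. With 1 ESC library, the difference between the ntESC lines and the ESC line was not tested.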

How the results depend on the processing

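Under the 7 alternatives in scaling, values and lines left out, 2 of 290 named genes turned direction, Lpl (log2 ratio 0.28, or −0.37 without the ESC line) and Gp1ba (0.12, −0.18 without the ESC line and −0.05 on the deposited log2 values), neither of them called. The count of genes called higher was 1565 and moved by over 1.5 times with a CPM minimum of 5 (924), a 2-fold limit (3012) and a 10-fold limit (949). The count called lower was 2451 and moved so with a 2-fold (3874) and a 10-fold limit (1510). Leaving out each line in turn gave 1650 to 1678 higher, with 1492 to 1534 of the 1565 calls among them. It gave 2501 to 2982 lower, the last without the ESC line. All 2451 lower calls stay among these by the rule itself, since fewer lines then have to pass it. RLE factors gave 1498 and 2558, library size 1543 and 2495, and the deposited log2 values 1415 and 2470. The median log2 ratio of all compared genes was 0.05 with TMM and −0.03 with RLE factors. Folds of 95 of 290 named genes moved on the deposited log2 values, whose added constant shrinks low levels by construction, and 3 without the ESC line by more than the spread of the lines (Ankrd1, Cdkn1c and Des, to at least 2075-, 363.2- and 63.9-fold lower). By over 1.5 times, the ratios of 48 named genes moved without the ESC line, 5 without F2 and 5 without M3. No paired analysis was possible because MEF is 1 library and shares no replicate number with the lines. Depth limits levels under 3 counts, and the lack of a second MEF culture limits every fold.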

Other observations

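Several gene families, chosen after their values were seen, were called mostly in 1 direction in these libraries. All 18 compared genes of the Pcdhb cluster and all 7 of Pcdha were called lower in the pluripotent lines, as were 15 of 22 of Pcdhg (Pcdhga8 was higher), with median log2 ratios of −4.97, −4.01 and −3.28. These clustered protocadherins are cell adhesion genes of neurons that lie together on chromosome 18. Of 467 compared genes there, these clusters included, 26.3% were called lower, against 14.5% of all compared genes. The single exons of each cluster share their 3′ part within Pcdha and Pcdhg, so the division of their reads is uncertain. Of 17 Adamts proteases 12 were lower, as were 9 of 12 compared Myh myosins (Myh14 was higher), 9 of 15 Wnt ligands (Wnt8a was higher), 6 of 7 class 3 semaphorins and 6 of 8 Bmp genes.

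On the other side, 18 of 19 Platr genes, non-coding RNAs named for pluripotency, were called higher, with a median log2 ratio of 5.92. So were 24 of 64 zinc finger genes with names from Zfp900 to Zfp999, none of which was lower, and all 5 compared Nlrp genes. Of the Fgf ligands 3 were higher (Fgf4, Fgf17 and Fgf3) and 7 lower, and of the Sox factors Sox2 and Sox15 were higher and 8 lower, so these families were split between the sides. Among genes on the X chromosome, 104 of 653 (15.9%) were called higher and 112 (17.15%) lower, beside 9.28% and 14.5% of all compared genes. Of the numbered chromosomes, chromosome 4 had the highest share called higher, 13.1%.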
